A study of Mus musculus with 24 samples.

Results

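A set of 10 genes of bile acid synthesis and of its control by the farnesoid X receptor was followed in the livers of mice fed a methionine-choline deficient (MCD) or a control diet. The 10 were chosen by symbol, for their role in the pathway, and make up 10 of the 56205 gene rows and 10 of the 14109 genes tested. They are the enzymes of the classical route (Cyp7a1, Cyp8b1), the alternative route (Cyp27a1, Cyp7b1), muricholate formation (Cyp2c70), ring reduction (Akr1d1) and conjugation (Slc27a5, Baat), and the nuclear receptors Nr1h4 (FXR) and Nr0b2 (SHP). RNA sequencing of poly(A)-selected libraries covered the whole livers of 24 C57BL/6J mice, with no transgene or deletion in either group. Of these, 12 received the MCD diet and 12 the control diet, both for 20 weeks, and the design holds 6 animals of each sex in each diet without naming the sex of any library. The labels call the control feed both a control diet and a chow, the study's methods describe the MCD feed as high in fat, its results use another name for the feed (CDAHFD, a choline-deficient high-fat diet), and no age is given for these animals.

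Hepatocytes turn cholesterol into bile acids. The classical route opens with CYP7A1 in the endoplasmic reticulum, the alternative route with CYP27A1 in mitochondria, and the products of both are joined to taurine or glycine before export into bile. Bile acids bind FXR, FXR raises SHP, and SHP lowers transcription of Cyp7a1 and Cyp8b1, while FXR in the ileum adds a hormonal brake through FGF15 and its hepatic receptor. Several of these enzymes are known to differ between male and female mouse liver.

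Total counts ran from 16793207 to 24915175 in control and from 16388650 to 24577848 in MCD libraries. Levels are CPM (read counts scaled to a common library size) on library sizes scaled by the trimmed mean of M-values (TMM), and differences are log2 fold changes, MCD minus control, from edgeR's quasi-likelihood test. A gene was called where the adjusted p was at most 0.01 and the log2 fold change exceeded 0.5 in size. The factors were 0.642 to 0.973 for control and 1.07 to 1.26 for MCD libraries, without overlap, so the choice of scaling bears on each fold change below. Hepatocyte markers fell in part (5 of 8 called lower, median log2 fold change -0.66), and their summed level was 90650 to 187700 CPM in control and 71330 to 105200 CPM in MCD. All 6 cholangiocyte, 6 mesenchymal and 5 monocyte-derived macrophage markers rose, with summed levels of 30.1 to 146.5 against 453.1 to 906.3 CPM, 140.0 to 450.1 against 636.6 to 1139 CPM, and 19.8 to 76.8 against 621.2 to 1318 CPM. Kupffer cell markers (4 of 5) and endothelial markers (4 of 5) were called lower, 2 of 4 lymphocyte markers were called higher, and the ileal genes Fgf15 and Fabp6 had 0 counts in every library. In whole liver, a smaller share of hepatocytes and less of an RNA per hepatocyte cannot be told apart. Control replicate 12 stood apart, with the lowest TMM factor and 5.34% mitochondrial counts, the lowest of the 24 libraries.

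Of the 10 bile acid genes, 5 were lower on the MCD diet and 0 were called higher (edgeR quasi-likelihood test). The genes that fell were Cyp7a1, Cyp27a1, Akr1d1, Slc27a5 and Nr1h4. Over all genes tested, 19.1% were called lower and 19.2% higher. The log2 fold change was below 0 in 9 of the 10, with a median of -0.84, against a median of -0.10 over all genes tested. At an unadjusted p under 0.05, 8 of the 10 were lower and 0 higher by edgeR, by DESeq2 and by limma-voom, and over all genes tested the edgeR shares were 39.0% and 27.7%. An adjusted p of at most 0.05 with no fold limit gave 8 lower (37.0% of genes tested), and a log2 limit of 1 gave 3 (4.86%). In 2 of the 10, Cyp27a1 and Slc27a5, every MCD library lay below every control library, a pattern seen in 4.88% of genes tested, and 9.50% showed the opposite separation. Without control replicates 1 and 12, the libraries with the lowest TMM factors, the same 5 genes were called by edgeR, with Cyp7a1 at -1.42, and Nr0b2 was at 0.60 (adjusted p = 0.0197).

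**Figure D1:**
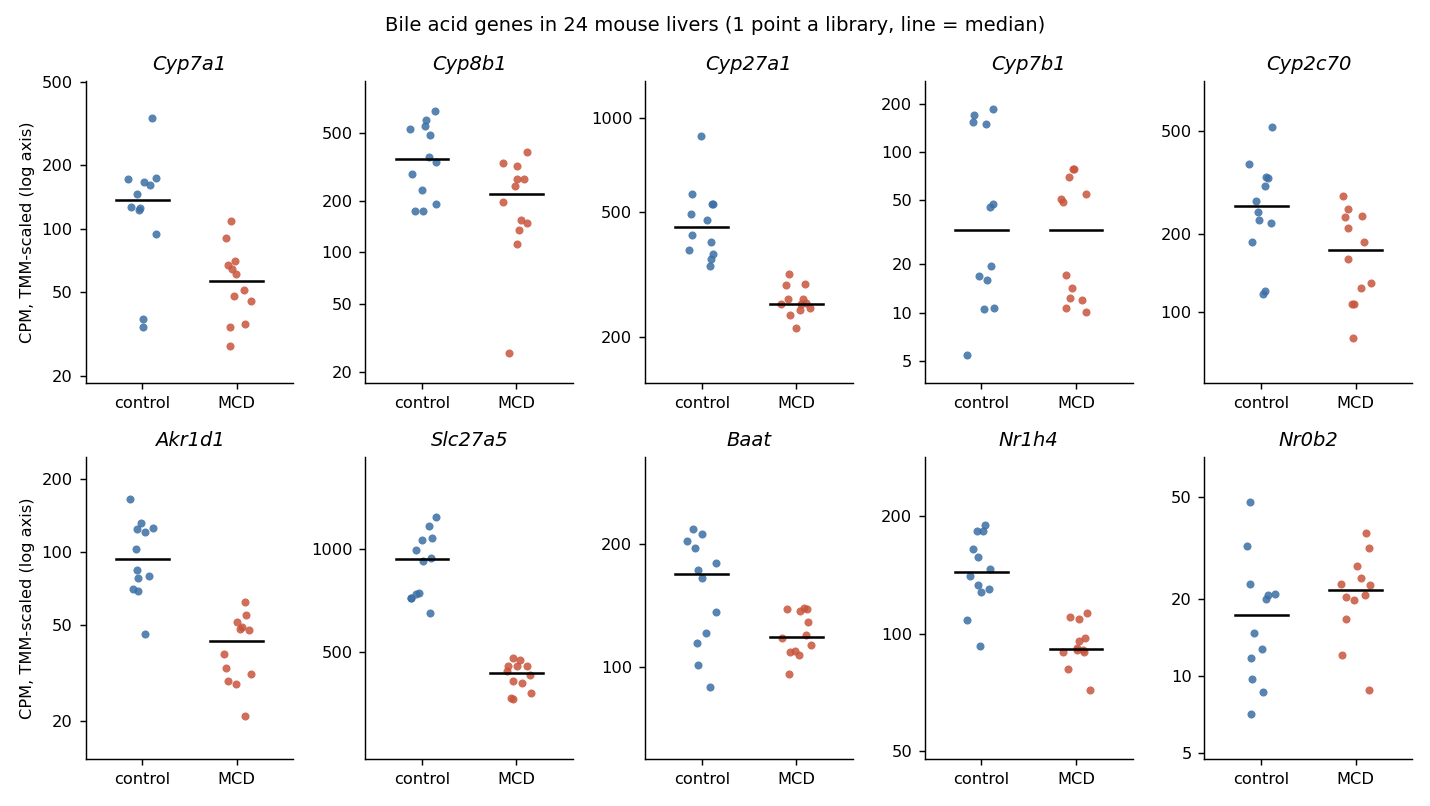
CPM on TMM-scaled library sizes (log axis) of each bile acid gene in 12 control and 12 MCD livers, with 1 point for each library and a line at the group median. The groups separate for Cyp27a1 and Slc27a5, while Cyp7b1 has almost the same median in both diets (32.5 and 32.9 CPM) and spreads widely.

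Cyp7a1 (ENSMUSG00000028240, chr4:6265612-6275633, minus strand, GRCm38) encodes the cholesterol hydroxylase that sets the rate of the classical route. Its level was 34.3 CPM at the lowest, 136.6 at the median and 335.1 at the highest among control livers, and 27.7, 56.1 and 108.4 CPM among MCD livers. All 12 MCD livers lay below the control median, but only 2 lay below every control, because control replicates 1 and 12 had 34.3 and 37.2 CPM. Its log2 fold change was -1.27 (SE 0.28, 95% CI -1.84 to -0.70, edgeR adjusted p = 0.000291), which left 41.4% of the control level.

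Cyp8b1 (ENSMUSG00000050445, chr9:121914356-121916305, minus strand) encodes the sterol hydroxylase that directs synthesis toward cholic acid. Control livers spanned 173.6, 348.7 and 665.5 CPM (lowest, median, highest), and MCD livers 25.9, 219.7 and 382.8 CPM. The ranges overlapped, with 5 MCD livers below every control, and the lowest of all was MCD replicate 8. The log2 fold change of -0.82 (SE 0.30) did not pass the threshold (edgeR adjusted p = 0.0203).

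On the alternative route, Cyp27a1 (ENSMUSG00000026170, chr1:74713574-74737892, plus strand), the mitochondrial enzyme that oxidizes the sterol side chain, measured 337.9, 448.7 and 873.7 CPM in control livers and 214.2, 255.8 and 317.6 CPM in MCD livers. The highest MCD liver was below the lowest control. The log2 fold change was -0.87 (SE 0.12, 95% CI -1.12 to -0.62, edgeR adjusted p = 9.13e-07), and the coefficient of variation was 30.7% among control and 10.8% among MCD livers. Without control replicate 12, the highest, the control value was 18.4%.

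Cyp7b1 (ENSMUSG00000039519, chr3:18071950-18243338, minus strand), the oxysterol hydroxylase that follows Cyp27a1, had the highest coefficient of variation of the 10 in both diets (104% and 73.6%). Its level was 5.49, 32.5 and 183.9 CPM in control livers and 10.2, 32.9 and 78.5 CPM in MCD livers. No MCD liver lay outside the control range, and 4 control livers exceeded every MCD liver, which set the mean but not the median apart. The log2 fold change was -0.86 with an SE of 0.55, and the 95% CI of -1.99 to 0.27 held 0 (edgeR adjusted p = 0.177).

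Cyp2c70 (ENSMUSG00000060613, chr19:40153353-40187333, minus strand) makes the muricholic acids that distinguish mouse bile. Control livers held 117.1, 257.0 and 520.0 CPM and MCD livers 79.8, 173.5 and 280.5 CPM. Only 3 MCD livers lay below every control, and the log2 fold change of -0.62 (SE 0.23) was not called (edgeR adjusted p = 0.0184).

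Akr1d1 (ENSMUSG00000038641, chr6:37530173-37568815, plus strand), which reduces the double bond of the sterol ring for both routes, fell by 1.28 on the log2 scale (SE 0.19, edgeR adjusted p = 1.57e-06). Its level was 46.0, 94.1 and 165.3 CPM in control livers and 20.95, 42.8 and 62.3 CPM in MCD livers. The single control liver inside the MCD range was replicate 12, and 6 MCD livers lay below every control.

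Slc27a5 (ENSMUSG00000030382, chr7:12988346-12998192, minus strand) encodes the bile acyl-CoA synthetase that activates bile acids for conjugation. It was at 648.0, 931.3 and 1243 CPM in control livers and at 363.1, 431.7 and 478.4 CPM in MCD livers, with no overlap. The log2 fold change was -1.11 (SE 0.10, 95% CI -1.32 to -0.89, edgeR adjusted p = 1.06e-09), the smallest adjusted p of the 10. Baat (ENSMUSG00000039653, chr4:49489422-49506557, minus strand), which joins the activated bile acid to its amino acid, was at 89.4, 168.9 and 217.6 CPM in control livers and 96.0, 118.4 and 139.5 CPM in MCD livers. Every MCD liver was below the control median of Baat, yet none was below every control. Its log2 fold change of -0.39 (SE 0.13, edgeR adjusted p = 0.0102) missed both limits.

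Nr1h4 (ENSMUSG00000047638, chr10:89454234-89533585, minus strand), the gene of the bile acid receptor FXR, measured 93.1, 143.9 and 189.7 CPM in control livers and 71.5, 91.4 and 112.7 CPM in MCD livers. There were 7 MCD livers below every control. The log2 fold change was -0.64 (SE 0.10, edgeR adjusted p = 7.09e-06), and -0.48 with upper-quartile factors, inside the fold limit. Nr0b2 (ENSMUSG00000037583, chr4:133553376-133556536, plus strand), which encodes the repressor SHP and is a direct FXR target, was at 7.09, 17.3 and 47.8 CPM in control livers and 8.82, 21.6 and 36.2 CPM in MCD livers. The control livers spanned the whole MCD range, and the log2 fold change of 0.20 (SE 0.26, 95% CI -0.33 to 0.74) was not called (edgeR adjusted p = 0.507).

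Per kb of the longest transcript, mean levels in control livers ran from Slc27a5 at 399 ± 87.0 CPM per kb (SD, n = 12) through Cyp27a1 (253 ± 77.5), Cyp8b1 (195 ± 90.2), Cyp2c70 (158 ± 65.6), Baat (81.9 ± 23.2) and Nr1h4 (72.9 ± 15.1) to Akr1d1 (37.1 ± 12.7), Cyp7a1 (33.9 ± 18.5), Cyp7b1 (31.9 ± 33.2) and Nr0b2 (16.9 ± 10.2). Neighbours from Akr1d1 to Cyp7b1 differed by less than their SD, as did Cyp27a1 and Cyp8b1, Cyp8b1 and Cyp2c70, and Baat and Nr1h4. The first 6 places were the same in MCD livers, from 186 ± 17.6 for Slc27a5 to 46.8 ± 5.98 CPM per kb for Nr1h4. Cyp7a1 was last there at 14.0 ± 5.69 CPM per kb, with Nr0b2 (19.3 ± 6.71), Cyp7b1 (17.6 ± 13.0) and Akr1d1 (15.3 ± 4.69) all within their SD of it. The level of Cyp8b1 relative to Cyp7a1, both per kb, was 1.47, 5.22 and 38.3 (lowest, median, highest) in control and 1.63, 6.75 and 20.8 in MCD livers, so the ranges overlapped almost wholly.

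The next question was how far each difference rested on the scaling. With total counts alone, the log2 fold change of the median gene moved up by 0.36, and 6.01% of genes tested were called lower and 32.2% higher. Cyp7a1 (-0.94), Akr1d1 (-0.92) and Slc27a5 (-0.72) were still called lower by edgeR, while Cyp27a1 (-0.47, adjusted p = 2.47e-05) and Nr1h4 (-0.26, adjusted p = 0.00681) came within the fold limit. Slc27a5 still did not overlap between the diets on that scale, and 10 of 12 MCD livers lay below every control for Cyp27a1. Scaled to the 8 hepatocyte markers, which moved the median gene up by 0.52, 3.76% of genes were called lower and 42.2% higher. Slc27a5 (-0.56, edgeR adjusted p = 2.01e-06) and Akr1d1 (-0.78, edgeR adjusted p = 0.000653) were then lower relative to those markers. On that scale the diets overlapped, with 7 of 12 MCD livers below every control for Slc27a5 and 2 of 12 for Cyp27a1. The share of all genes with separate groups was taken on TMM sizes only. Cyp7a1 was at -0.83 with an edgeR adjusted p of 0.0113, Cyp27a1 at -0.30 and Nr1h4 at -0.12, none of them called. Nr0b2 was called higher relative to the hepatocyte markers, at 0.80 (SE 0.23, edgeR adjusted p = 0.0035), with 8 of 12 MCD livers above every control. The markers themselves then ran from -0.26 to 0.70, with a median of -0.11. On total counts Nr0b2 was at 0.63 (edgeR adjusted p = 0.0192). Baat changed sign, from -0.39 on TMM sizes to 0.13 relative to the hepatocyte markers. The part of cell composition in any of these differences was not tested.

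**Figure D2:**
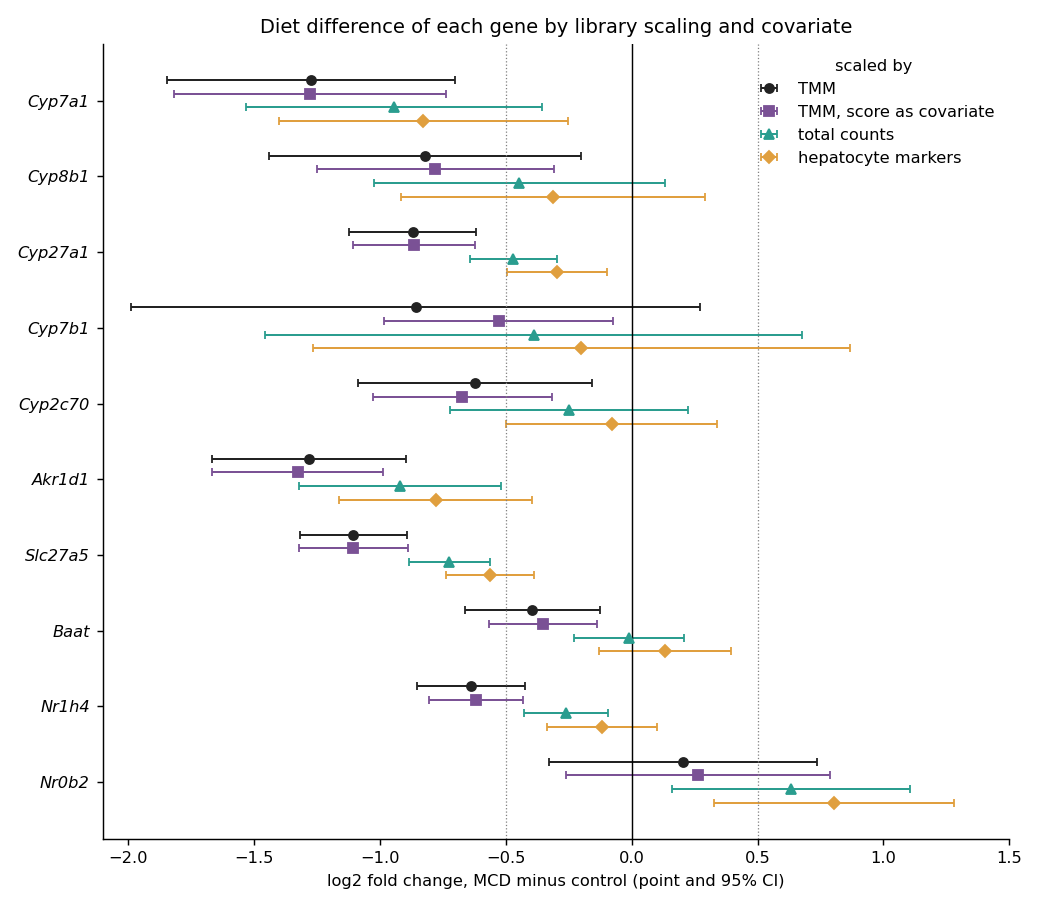
Log2 fold change (MCD minus control) with its 95% CI for each bile acid gene under TMM sizes, TMM with the sex-linked score as covariate, total counts alone and hepatocyte marker scaling; dotted lines mark the fold limit of 0.5 in either direction. The points of Cyp7a1, Slc27a5 and Akr1d1 stay beyond the lower limit in all 4 fits, and Nr0b2 shifts from 0.20 to 0.80.

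Both sexes were present but unlabelled, so a sex-linked score was used as a number: Xist on the log2 CPM scale less the average of 4 Y-linked genes (Uty, Kdm5d, Ddx3y, Eif2s3y), centred on 0. It ran from -10.36 to 10.18, with 6 libraries below 0 and 6 above 0 in each diet. No library lay between -7.49 (MCD replicate 10) and 8.41 (MCD replicate 5). A slope for each unit therefore stands for a difference between the clusters on either side of 0, not for a graded relation. In a fit of diet and score, 3 of the 10 were associated with the score by edgeR at an adjusted p of 0.01 or less, where 3.48% of genes tested were. Cyp7b1 fell by 0.15 on the log2 scale for each unit of score (SE 0.013, adjusted p = 2.39e-09). Cyp8b1 fell by 0.057 for each unit (SE 0.013, edgeR adjusted p = 0.00509). Cyp2c70 moved the other way and rose by 0.042 (SE 0.0096, edgeR adjusted p = 0.00582). Baat was at -0.022 for each unit (edgeR adjusted p = 0.0146) and passed in DESeq2 and with hepatocyte marker scaling, each of which called 4 of the 10. The slopes changed little with any 1 library left out, from -0.061 to -0.051 for Cyp8b1 and from 0.038 to 0.050 for Cyp2c70, but their adjusted p values lay near the limit and reached 0.0144 and 0.0151. Without MCD replicate 9 only Cyp7b1 was called, Cyp2c70 was not called without MCD replicate 1 or control replicate 7, 8 or 11, and Cyp8b1 was not called without control replicate 3, 6 or 9.

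**Figure D3:**
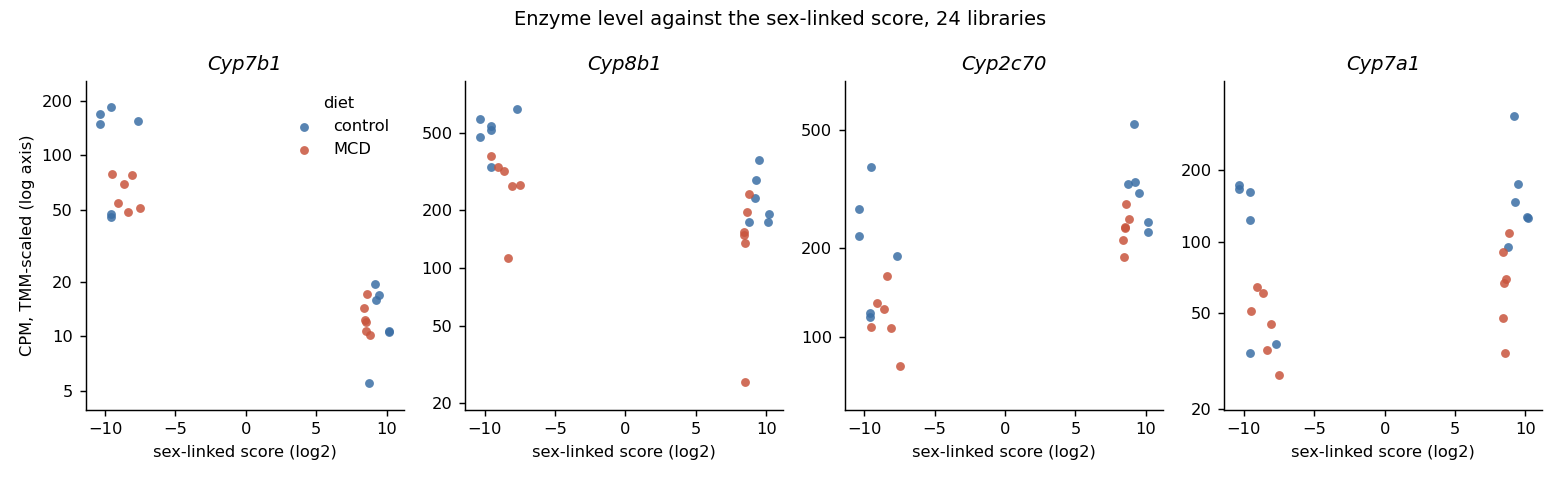
CPM on TMM-scaled library sizes (log axis) of Cyp7b1, Cyp8b1, Cyp2c70 and Cyp7a1 against the sex-linked score (log2), 1 point for each of 24 libraries, coloured by diet. Cyp7b1 and Cyp8b1 are lower at high scores and Cyp2c70 higher, while Cyp7a1 has no called association (0.027 for each unit).

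With the score as a covariate, the diet differences of Cyp8b1 (-0.78, SE 0.23, edgeR adjusted p = 0.00439) and Cyp2c70 (-0.67, SE 0.17, edgeR adjusted p = 0.00142) also passed the threshold. Neither passed with the score and total counts (-0.43, adjusted p = 0.0873, and -0.29, adjusted p = 0.116) or with the score and hepatocyte marker scaling (-0.29, adjusted p = 0.233, and -0.11, adjusted p = 0.533). On TMM sizes with the score, 7 of the 10 were called lower, against 19.2% of genes tested. Cyp7b1 was at -0.53 with an SE of 0.22 in place of 0.55 (edgeR adjusted p = 0.0394). A dependence of the diet difference on the score was called by edgeR for 0 of the 10, where 0.411% of genes tested were called. At an unadjusted p under 0.05 there were 4 of the 10 by edgeR, 4 by DESeq2 and 4 by limma-voom (13.7% of genes tested by edgeR), and both of the other tools also called 0. The 4 were Baat, Nr1h4, Nr0b2 and Akr1d1, named after their values were seen, and the smallest adjusted p was 0.166, for Baat (edgeR).

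Promoter sequence from RefSeq (GRCm38.p6) was found for 6 of the 10, namely Cyp27a1, Nr0b2, Akr1d1, Cyp8b1, Nr1h4 and Cyp2c70. The 250 bases before the RefSeq start site were searched, and the bases outside the GENCODE gene are shown for 3: Nr0b2, the gene of the 10 with a log2 fold change above 0, and Cyp8b1 and Cyp2c70, which moved in opposite directions with the score. Each is read 5′ to 3′ on the strand of its gene, and capitals mark matches to 4 motifs searched on both strands: AGGTCA (a nuclear receptor half-site), TCAAGG (the core bound by LRH-1, the product of Nr5a2), CAAAGTCCA (a form of the HNF4 motif) and TATAAA (the TATA box). The windows are chr4:133553126-133553375 on the plus strand for Nr0b2, chr9:121916306-121916555 on the minus strand for Cyp8b1 and chr19:40187334-40187536 on the minus strand for Cyp2c70. The start of Cyp2c70 in RefSeq lies inside the gene as GENCODE gives it, so the last 47 bases of its window are not shown.
Nr0b2: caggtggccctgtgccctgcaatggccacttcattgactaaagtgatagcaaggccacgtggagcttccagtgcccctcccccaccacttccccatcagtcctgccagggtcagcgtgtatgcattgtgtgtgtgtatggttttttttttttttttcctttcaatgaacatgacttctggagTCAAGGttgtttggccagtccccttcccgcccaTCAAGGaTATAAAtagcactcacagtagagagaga
Cyp8b1: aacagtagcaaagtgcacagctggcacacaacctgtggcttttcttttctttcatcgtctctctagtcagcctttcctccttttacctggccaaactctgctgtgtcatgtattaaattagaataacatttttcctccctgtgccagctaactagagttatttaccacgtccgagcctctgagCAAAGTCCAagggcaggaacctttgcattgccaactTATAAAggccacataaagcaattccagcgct
Cyp2c70: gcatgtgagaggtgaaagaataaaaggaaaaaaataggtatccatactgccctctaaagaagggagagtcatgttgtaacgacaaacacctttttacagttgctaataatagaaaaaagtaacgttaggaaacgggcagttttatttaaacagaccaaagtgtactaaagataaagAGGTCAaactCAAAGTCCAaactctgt
The Nr0b2 window held TCAAGG at 68 and 35 bases before the start, a motif found in 12.5% of 32851 promoter windows of this length. CAAAGTCCA stood at 67 bases in Cyp8b1 and at 64 bases in Cyp2c70 and occurred in 0.384% of windows (126 of 32851). Cyp2c70 also held AGGTCA at 74 bases (14% of windows). TATAAA (12.4% of windows) lay at 28 and 31 bases before the starts of Nr0b2 and Cyp8b1, and on the opposite strand at 29 bases in Cyp2c70, within the 47 bases not shown. Among the promoters searched but not shown, Akr1d1 held AGGTCA at 232 and 210 bases and TCAAGG at 213 bases, all on the opposite strand. Nr1h4 held AGGTCA at 214 bases on the opposite strand, and Cyp27a1 held no match. These are letter matches in a window chosen with the values known, and no binding was measured.

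SHP is known to repress Cyp7a1 and Cyp8b1, so the level of Nr0b2 was set against both within each diet, on log2 CPM, in 4 relations of 12 livers each. In control livers Nr0b2 and Cyp7a1 ran in opposite directions with Pearson r = -0.628 (permutation p = 0.0281, adjusted over the 4 relations p = 0.112) and Spearman rho = -0.371 (permutation p = 0.235, adjusted p = 0.429). Without the 2 libraries farthest from the Nr0b2 median, r was -0.475 over 10 livers (permutation p = 0.161). The highest Nr0b2 levels among control livers, 32.2 and 47.8 CPM in replicates 1 and 12, were in the livers with the lowest Cyp7a1. The 10 livers nearest the median still held replicate 1. Without both replicates r was 0.0299 over 10 livers (permutation p = 0.942), so the relation in control livers rested on them. In MCD livers r was -0.357 (permutation p = 0.256, adjusted p = 0.342) and rho -0.315 (permutation p = 0.322, adjusted p = 0.429), and r was -0.426 over the 10 livers nearest the median (permutation p = 0.223). For Cyp8b1, r was 0.400 in control livers (permutation p = 0.197, adjusted p = 0.342, rho 0.434, permutation p = 0.163, adjusted p = 0.429). In MCD livers r was -0.195 (permutation p = 0.511, adjusted p = 0.511, rho -0.119, permutation p = 0.714, adjusted p = 0.714). The values without the farthest 2 were 0.186 (permutation p = 0.599) and 0.229 (permutation p = 0.513). None of the 4 relations passed after adjustment. Each relation pooled livers from both sides of the sex-linked score, with which Cyp8b1 was associated, and no r with the score removed is given. Control replicates 1 and 12 were on the same side, at scores of -9.55 and -7.69.

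**Figure D4:**
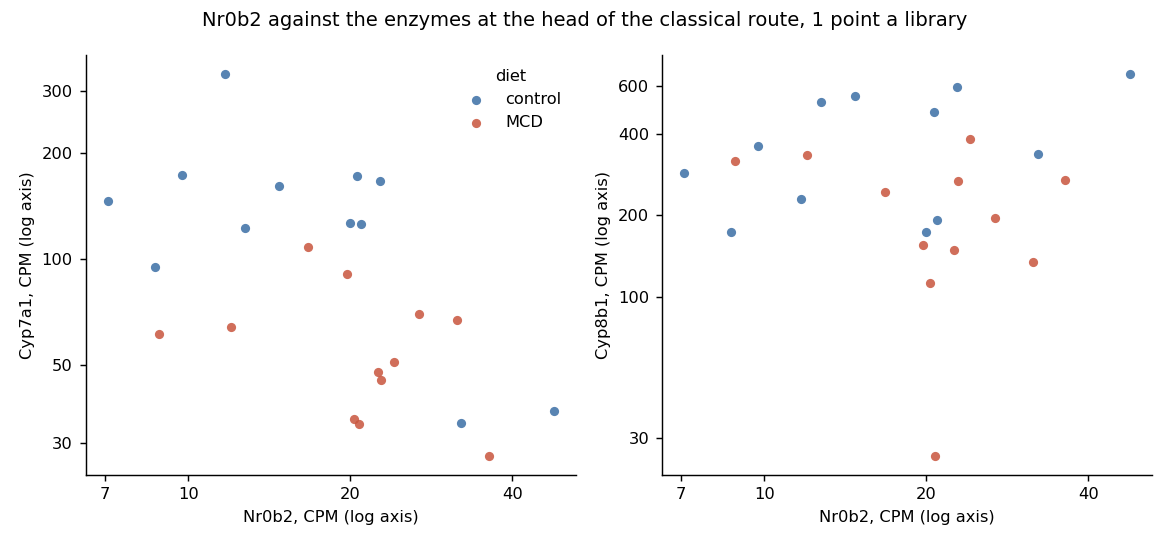
CPM of Cyp7a1 (left) and Cyp8b1 (right) against CPM of Nr0b2, both on log axes, with 1 point for each of 12 control and 12 MCD livers. The control points of highest Nr0b2 (32.2 and 47.8 CPM) have the lowest Cyp7a1 of that diet, and no such arrangement is seen for Cyp8b1.

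Around these 10 genes, 3 companion lists were read in the same fit. Of 13 further enzymes of bile acid synthesis, 12 were tested, 6 were called lower and 0 higher, beside 19.1% and 19.2% of all genes tested, and the median log2 fold change was -0.49. The decrease was steepest in Cyp46a1, a cholesterol hydroxylase better known from brain, which went from 47.1 ± 31.6 to 2.75 ± 0.86 CPM (log2 fold change -4.09, SE 0.37, edgeR adjusted p = 4.89e-10). The ring-modifying reductase Akr1c14 (-1.16), the peroxisomal side-chain enzymes Scp2 (-0.91) and Hsd17b4 (-0.78), the acyl-CoA synthetase Slc27a2 (-0.61) and Hsd3b7 (-0.50), the ring dehydrogenase shared by both routes, also fell. The call of Hsd3b7 stood just past the fold limit. It was lost with relative log expression or upper-quartile factors, total counts, hepatocyte marker scaling, other filters, DESeq2 and limma-voom. The replicate block, the score as covariate and 14 of 24 fits with 1 library left out lost it too. The call of Slc27a2 was lost with upper-quartile factors, on total counts and with hepatocyte marker scaling, and that of Hsd17b4 with the last 2. That of Scp2 was lost with hepatocyte marker scaling and with the score added to total counts. Hsd3b7, Akr1c14 and Slc27a2 share exon positions with another gene, so their counts are less certain. Amacr (-0.49, edgeR adjusted p = 5.53e-05) lay just inside the fold limit. Ch25h, a sterol hydroxylase of macrophages among other cells, had 0 to 9 counts in control and 6 to 41 in MCD livers and was not tested. Scp2 (-0.043 for each unit, edgeR adjusted p = 9.55e-06) and Akr1c6 (-0.034, edgeR adjusted p = 0.00658) were associated with the sex-linked score.

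Among 14 regulators, all tested, 8 were called lower and 0 higher (19.1% and 19.2% of all genes tested), with a median log2 fold change of -0.59. Ppara, the fatty acid receptor, fell by 1.77 on the log2 scale (117.9 ± 38.9 to 34.7 ± 7.47 CPM, edgeR adjusted p = 2.51e-08). Klb, the coreceptor through which FGF15 acts on hepatocytes, fell by 1.39 (29.5 ± 4.22 to 11.3 ± 3.65 CPM, edgeR adjusted p = 3.28e-09) with no overlap between the diets, while its partner Fgfr4 was at -0.32 (edgeR adjusted p = 0.00333) and not called. The xenobiotic receptors Nr1i3 (-0.90) and Nr1i2 (-0.53), the corepressors Prox1 (-0.86) and Ncor1 (-0.76), Nr5a2 (-0.71), whose product LRH-1 activates Cyp7a1 and Nr0b2, and the FXR partner Rxra (-0.65) made up the others. Nr1i2 was not called with relative log expression or upper-quartile factors, other filters or DESeq2, or in 10 of 24 fits with 1 library left out. On total counts alone Nr1i3, Ppara and Klb were called, and with hepatocyte marker scaling Ppara and Klb, so Prox1, Ncor1, Nr5a2, Rxra and Nr1i2 lost their calls on both scales. Nr1i3, Prox1 and Ncor1 share exon positions with another gene, so their counts are less certain. Hnf4a, which drives hepatocyte genes including Cyp7a1 and Cyp8b1, was at -0.49 (edgeR adjusted p = 4.14e-05), inside the fold limit.

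Of 11 genes known as FXR targets, 9 were tested, 4 were called lower and 0 higher (again 19.1% and 19.2% of all genes tested), with a median log2 fold change of -0.46. The list was not divided by whether FXR raises or lowers each gene, so these counts give no direction of FXR activity. Slc10a1 (NTCP), which takes bile acids up from blood, fell by 2.15 on the log2 scale (489.1 ± 111.2 to 110.4 ± 26.4 CPM, edgeR adjusted p = 3.56e-12). The export pump Abcb11 (BSEP) fell by 1.27, from 404.5 ± 67.1 to 168.0 ± 44.4 CPM (edgeR adjusted p = 5.76e-09), and neither transporter overlapped between the diets. Pltp (-1.46) and the canalicular transporter Abcc2 (-0.78) were also lower, and the call of Abcc2 was lost on total counts and with hepatocyte marker scaling. Abcb11, Pltp and Mafg share exon positions with another gene and are less certain. The phospholipid transporter Abcb4 (-0.21, edgeR adjusted p = 0.0243) and Mafg (-0.46, edgeR adjusted p = 0.000537) were not called. Slc51a and Slc51b, the subunits of the basolateral exporter, had at most 66 and 29 counts in a library and were not tested. In each of the 3 lists 0 genes were called higher by edgeR, by limma-voom or by DESeq2 with its own size factors, and at an unadjusted p under 0.05 there were also 0. Relative to the 8 hepatocyte markers, 2 of the enzymes, 2 of the regulators and 3 of the targets were called lower by edgeR, and 1 gene of each list (Cyp39a1, Gps2 and C3, named after their values were seen) was called higher. The shares over all genes tested on that scale were 3.76% lower and 42.2% higher.

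**Figure D5:**
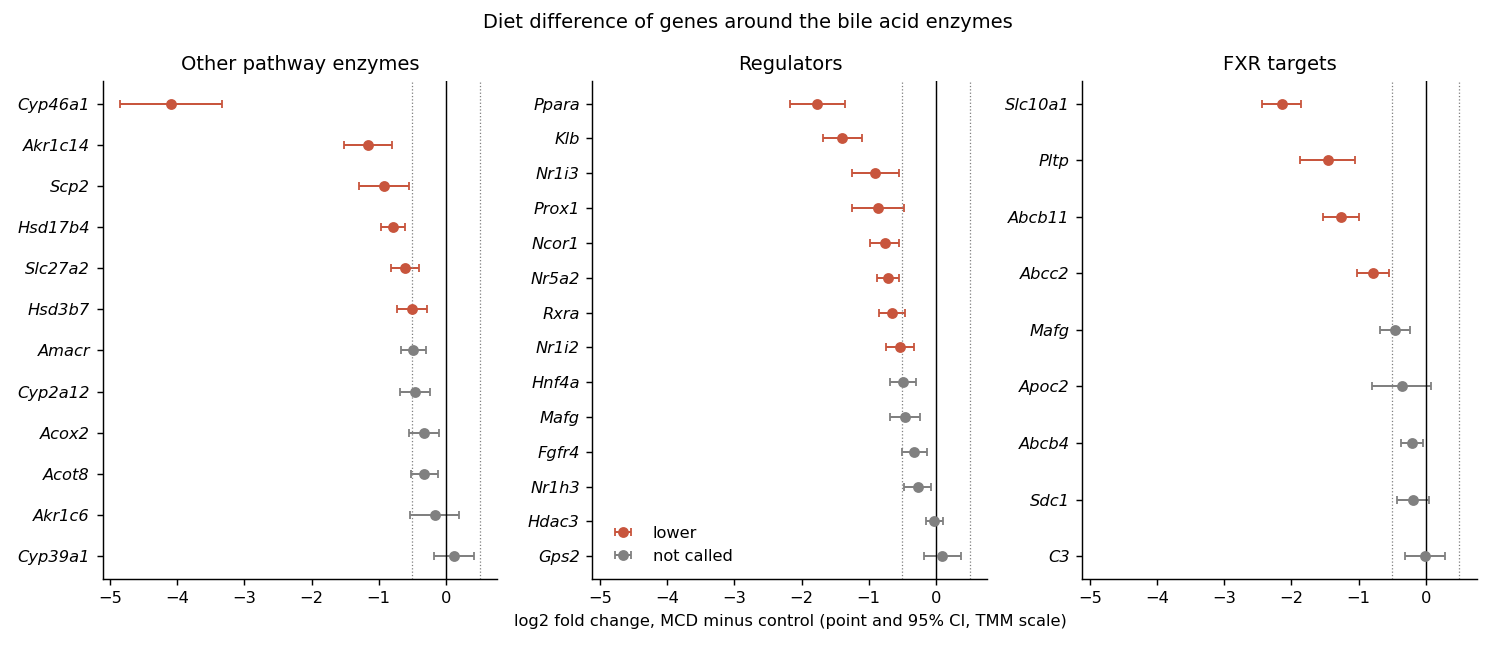
Log2 fold change (MCD minus control, TMM sizes) with its 95% CI for the tested genes of 3 companion lists, coloured where called lower; dotted lines mark 0.5 in either direction. Cyp46a1 (-4.09), Slc10a1 (-2.15) and Ppara (-1.77) are the farthest below 0 in their lists.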

How the data were processed

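Poly(A) libraries of whole liver were made from 12 control and 12 MCD mice. The values the authors deposited are whole-number read counts per Ensembl gene, not normalized, for 24 libraries, and 0 columns of per-sample values were left unused. The submitters' processing notes name bcl2fastq, STAR 2.7.3a and build mm10. The study's methods name a stranded mRNA kit for RNA-seq with no species given and, for reads aligned to the human genome, the exon quantification pipeline with the same STAR version and the quantifier PISCES. Whether these also served the mouse libraries, and the annotation release and use of strand in the mouse counts, are not given in the sources used here, so antisense and overlapping genes cannot be told apart, although none of the 10 genes shares exon positions with another. Symbols, coordinates and transcript lengths came from GENCODE mouse release M21 (GRCm38). The labels give no litter, batch or sex of a library.

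Genes were filtered with filterByExpr (14109 kept), scaled by TMM and tested in R 4.3.3 with edgeR 4.0.16 (glmQLFit, glmQLFTest) on diet alone, with Benjamini-Hochberg adjustment over all genes tested. Calls needed an adjusted p of at most 0.01 and a log2 fold change beyond 0.5 in either direction; the score and interaction tests had no fold limit. The biological coefficient of variation was 26.8%. A count of 3 equalled 0.109 to 0.227 CPM, a floor that covers counting error only. Within diets, 0 of 132 library pairs were identical, and the lowest dispersion index was 11.4 where sampling noise gives about unity. No pair was thus a copy or a second sequencing of 1 library. Each library was taken as 1 sample, although this index cannot show that libraries came from separate animals. The alternatives used DESeq2 1.42.0, limma 3.58.1 (voom), other scalings, filters, thresholds, covariates and sets of libraries. Permutation tests of correlations were two-sided with 100000 resamples (scipy 1.17.1, numpy 2.4.6). On counts simulated for the diet comparison over 14109 genes, edgeR called 76 of 100 genes changed by 1 and 99 of 100 changed by 2 on the log2 scale, and 1 unchanged gene. As many of the 200 changed genes were raised as lowered. The simulation thus held no shift in composition and does not measure error from the choice of scaling.

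The 10 genes and the lists around them were chosen with earlier results of these data known. All 10 are named. From each of the 3 companion lists, at most 6 examples are given by size of change among called genes and then by lowest p, beside the others that a count refers to. For each of the 10, the 3 genes most alike within diets were taken from genes averaging 5 CPM or more. Some of them are not reported here. The correlations of Nr0b2 and the promoter motifs were chosen after the data were seen.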

Additional observations from a re-analysis of the deposited data

How the results depend on the processing

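The 5 lower calls among the 10 bile acid genes were also made with relative log expression factors, DESeq2, a minimum of 10 counts per library, no filter at all, limma-voom and the replicate block. With total counts alone 3 were called lower (848 of 14109 genes tested), and with the score as covariate added 3 (857 of 14109). With hepatocyte marker scaling 2 were lower and 1 (Nr0b2) higher (530 and 5953 of 14109). With the score added to that scaling there were 3 and 1 (548 and 6078 of 14109). Upper-quartile factors gave 4, without Nr1h4, where 1710 of 14109 genes tested were called lower. The fits that join the score to another scaling, and those without control replicates 1 and 12, were chosen after seeing the data. An FDR of 0.05 with no fold limit gave 8 (37.0% of genes tested), and a log2 limit of 1 gave 3 (4.86%). Of the 13 other enzymes, the lower calls became 3 on total counts, 2 with hepatocyte scaling, 2 with the score added to either, 10 at an FDR of 0.05 and 2 at a log2 limit of 1. Among them 1 gene was called higher in other fits. It was Cyp39a1 with hepatocyte scaling, and with the score added to it or to total counts, and Ch25h with no filter or without both control replicates 1 and 12, where Ch25h came to be tested. The regulators had 3 lower calls on total counts, 2 with hepatocyte scaling, 2 with the score added to either and 2 at a log2 limit of 1, and 1 higher call (Gps2) with hepatocyte scaling, or 2 (with Hdac3) with the score added. The FXR targets had 3 lower calls on total counts and 3 with hepatocyte scaling, without Abcc2, and 1 higher call (C3) in both hepatocyte-scaled fits. Baat changed sign to 0.13 with hepatocyte scaling, 0.015 with the score and total counts and 0.17 with the score and hepatocyte scaling, and Cyp7b1 to 0.068 in the last. None of these 4 values passed. With single libraries left out in turn there were 5 to 6 lower calls among the 10 genes (Cyp2c70 joined without control replicate 8 or 11) and 0 to 1 higher call (Ch25h) among the other enzymes. Their lower calls numbered 5 to 7, those of the regulators 7 to 10 and of the FXR targets 4 to 5. The log2 fold changes then spanned -1.34 to -1.08 for Cyp7a1, -0.91 to -0.72 for Cyp27a1, -1.15 to -1.04 for Slc27a5, -1.32 to -1.17 for Akr1d1, -0.69 to -0.56 for Nr1h4, -1.004 to -0.56 for Cyp7b1 and 0.12 to 0.45 for Nr0b2. Genes called for the score numbered 1 to 4, with 1 without MCD replicate 9. The cause of these shifts was not tested beyond the scaling itself. The replicate numbers were not taken to pair the livers, since only 8 of 12 pairs had correlated deviations above 0.1 (range -0.28 to 0.35). The median was 0.233 for the same number and -0.0592 for other pairs, and 2 of 12 control libraries correlated best with their own number. Same-numbered libraries lay on the same side of the sex-linked score, except numbers 2 and 8. The deviations were centred by diet only, so the part of the score in these correlations was not tested. With the replicate block 5 genes were again called lower, with Cyp7a1 at -1.17 (edgeR adjusted p = 0.00229) and Cyp7b1 at -0.41 (SE 0.31, against 0.55). Depth limited Ch25h, Slc51a and Slc51b, which fell under the filter.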

Other observations

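Genes whose within-diet deviations of log2 CPM were among the most like those of each bile acid gene were read as a description over the 24 libraries, which share depth, scaling and diet groups, and r is also given after removing the sex-linked score. For Cyp7b1 they were Mup7 (r = 0.982, 0.913 without the score), Mup12 (0.977, 0.894) and Tmem19 (0.970, 0.844). The Mup genes are near-identical copies, so their single counts are uncertain. Nr1h4 also ran with 3 of them, Mup19 (0.916, 0.876), Mup17 (0.911, 0.869) and Mup9 (0.905, 0.881). For Cyp27a1, the closest were the mitochondrial serine enzyme Shmt2 (0.933, 0.928), the folate enzyme Aldh1l1 (0.894, 0.894) and Klc4 (0.882, 0.879). Slc27a5 ran with the mitochondrial carbonic anhydrase Car5a (0.908, 0.907), Haao (0.907, 0.918) and 1300017J02Rik (0.890, 0.890).

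Akr1d1 was closest to the aminopeptidase Enpep (0.889, 0.852), glutamate dehydrogenase Glud1 (0.882, 0.845) and Dpyd (0.848, 0.852). Baat was closest to Osbpl9 (0.939, 0.918), the sulfotransferase Sult2a8 (0.923, 0.869) and C4bp (0.916, 0.857). Cyp2c70 ran with Ces1c (0.851, 0.690), the bile salt pump Abcb11 (0.828, 0.699) and A630031M04Rik (0.810, 0.628). Abcb11 shares exon positions with another gene. Cyp8b1 ran with Immt (0.863, 0.745), Them7 (0.800, 0.676) and Qprt (0.799, 0.724). Cyp7a1 ran with Slc47a1 (0.750, 0.700), and Nr0b2 with Larp4b (0.758, 0.750) and Ahsa2 (0.754, 0.749).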
